A study of Mus musculus with 4 samples.

Results

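The 7 genes of the AP-1 Fos and Jun family were read in mouse hippocampus, out of 23466 gene symbols in the deposited table. They are the Fos genes Fos, Fosb, Fosl1 and Fosl2 and the Jun genes Jun, Junb and Jund, taken by name, and each has a single RefSeq record. The mutants were 38 and 39, whose condition is given as Atp6ap2Camk2aCre/0 and as conditional het, while their titles read ko. The controls were wild types 11 and 73, described only as wt, with no word on whether they carry Cre or a targetable allele. All 4 libraries came from frozen hippocampus of C57BL/6N mice at P30, that is postnatal day 30. Camk2a-Cre is a recombinase driven in forebrain excitatory neurons, so RNA of cells without Cre is in every library, and Atp6ap2 encodes an accessory subunit of the vacuolar proton pump. In bulk tissue, fewer cells of a type and less RNA per cell cannot be told apart.

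AP-1 is a transcription factor made of a pair of basic leucine zipper (bZIP) proteins. Jun proteins pair with each other or with Fos proteins, whereas Fos proteins need a partner such as a Jun protein, and the pair binds short palindromic DNA sites. In hippocampal neurons Fos, Fosb, Jun and Junb are immediate early genes, switched on within minutes by synaptic activity through calcium and MAP kinase signalling, and Jund is present more steadily. Immediate early transcripts are short-lived, and their levels follow recent stimulation.

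Values are scaled read equivalents, the deposited aligned bases divided by the 42 bases of a read. Before scaling, the libraries held from 10023033 (wild type 73) to 18339838 (wild type 11) read equivalents over genes. Markers of excitatory neurons were read in every library, with a summed level of 64701 and 72957 in mutants 38 and 39 and of 67330 and 75420 in wild types 11 and 73. Choroid plexus markers divided each group, with a summed level over 12 genes of 121207 in mutant 38 and 7573 in mutant 39, against 72850 in wild type 11 and 7250 in wild type 73. Mutant 38 and wild type 11 are therefore also set against each other below, and likewise mutant 39 and wild type 73. The targeted gene, Atp6ap2, was at 2551 and 2522 in mutants 38 and 39, against 2312 and 2637 in wild types 11 and 73, with a log2 fold change of 0.04 ± 0.10 (SE, n = 2 and 2, limma adjusted p = 0.991), so its level did not check the labels.

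For Jun and Junb each mutant had a lower level than each wild type, and for the other 5 members the groups overlapped. No member passed the test over all genes. With limma and Benjamini-Hochberg adjustment at 0.05, 0 of the 7 members were called, as were 0.00552% of the 18127 genes tested, which is 1 gene. At an unadjusted p below 0.05, 2 of the 7 members were lower in the mutants and 0 higher, against 1.75% of all genes lower and 2.18% higher. Both mutants lay below both wild types for these 2 members and for 16.5% of all genes. The median log2 fold change of the 7 members was 0.02, beside 0.0067 over all genes tested. An exact permutation test of a single gene cannot give a two-sided p below 0.333 with 2 against 2 libraries.

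**Figure D1:**
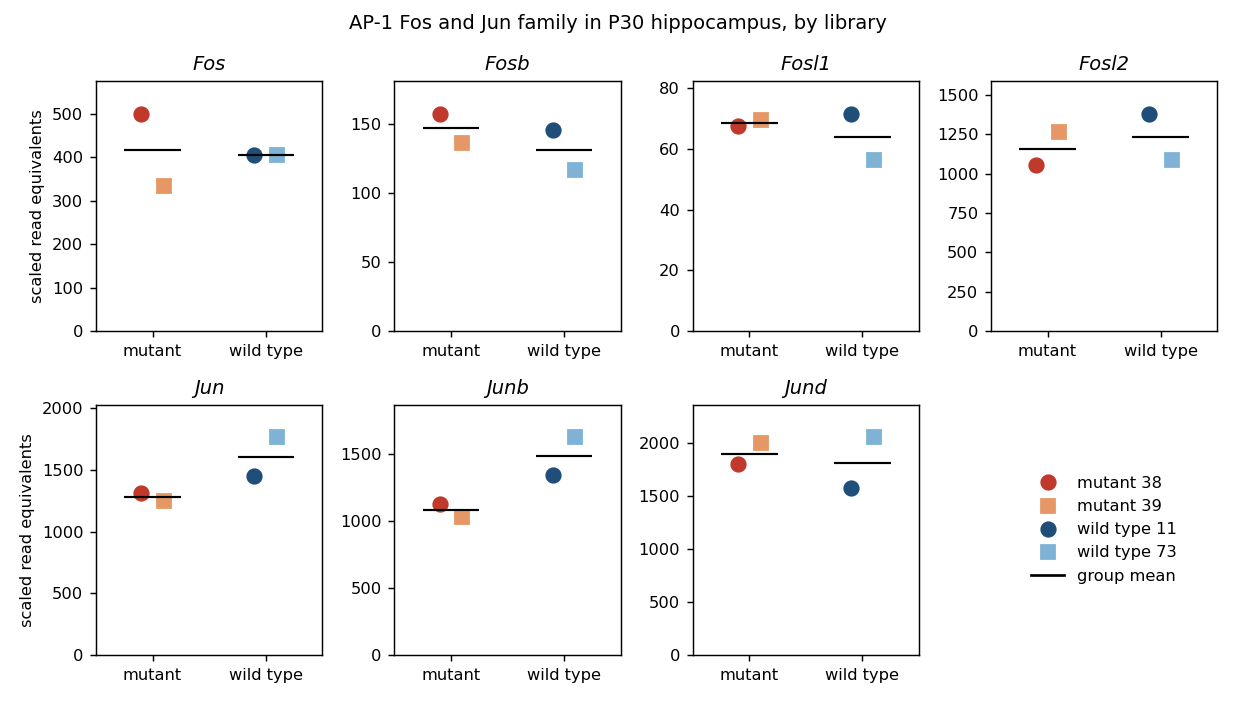
Scaled read equivalents of each Fos and Jun family gene in each library, with the mutants on the left and the wild types on the right of each panel and lines at the group means. For Jun and Junb both mutants sit below both wild types, and for the other 5 genes the groups overlap.

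The stretches of DNA before the starts of Jun and Junb are shown because these are the members whose groups did not overlap, and that of Fos because it is the usual activity marker and its groups did. They are the 250 bases before the annotated start, from RefSeq on GRCm38.p6, on the strand of the gene, which is chr4:95052223-95052472 on the minus strand for Jun, chr8:84978749-84978998 on the minus strand for Junb and chr12:85473640-85473889 on the plus strand for Fos. Capitals mark TGACATCA and CTATTTTTAG in Jun and TGACG in Junb and Fos.
Jun: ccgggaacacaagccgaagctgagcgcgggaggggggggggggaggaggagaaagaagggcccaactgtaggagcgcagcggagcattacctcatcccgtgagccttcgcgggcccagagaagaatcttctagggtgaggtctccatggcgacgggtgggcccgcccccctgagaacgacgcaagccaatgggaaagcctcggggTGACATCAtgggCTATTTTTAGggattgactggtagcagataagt
Junb: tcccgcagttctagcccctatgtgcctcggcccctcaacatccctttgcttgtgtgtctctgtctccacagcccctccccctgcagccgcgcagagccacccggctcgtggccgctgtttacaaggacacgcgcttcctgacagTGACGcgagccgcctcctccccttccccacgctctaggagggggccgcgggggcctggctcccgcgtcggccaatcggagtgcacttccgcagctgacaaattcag
Fos: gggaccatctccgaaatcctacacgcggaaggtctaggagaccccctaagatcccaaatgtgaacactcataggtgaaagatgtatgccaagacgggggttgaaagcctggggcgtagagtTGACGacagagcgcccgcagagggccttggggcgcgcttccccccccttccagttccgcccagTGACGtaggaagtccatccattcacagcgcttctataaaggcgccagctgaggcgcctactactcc

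These windows were searched on both strands for the sites named below, by which AP-1 genes are known to be controlled. Other sites were not searched for, so an unmarked stretch may hold some. TGACATCA, a variant of the AP-1 site through which Jun protein acts on its own gene, lies 38 to 45 bases before the Jun start and is in 2.93% of 32851 promoter windows of the same length. CTATTTTTAG, a match to the site of MEF2 factors, lies 24 to 33 bases before the Jun start, and such a site is in 2.92% of windows. TGACG, the core of the site of the cyclic AMP response factor CREB, is in 17.8% of windows. It occurs once before Junb, 102 to 106 bases from the start, and at 2 places before Fos, 62 to 66 and 125 to 129 bases from the start. Fosb has it 56 to 60 bases from the start. The complete CREB site TGACGTCA (1.55% of windows), the consensus AP-1 site TGACTCA (4.46%) and the CArG box of serum response factor (1.47%) had no match in the 6 members with a window, which says only that those letters are not in these 250 bases. TGACG is part of TGACGTCA. A window was found for 6 of the 7 members.

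Junb encodes a Jun protein that in many settings restrains transcription by c-Jun. It had 1123 and 1031 scaled read equivalents in mutants 38 and 39, against 1341 and 1622 in wild types 11 and 73. Every mutant value was below every wild-type value, and the highest value was that of wild type 73, the library with the fewest reads. The means were 1077 ± 64.6 in mutants and 1481 ± 199 in wild types (SD, n = 2 each). Its log2 fold change was -0.45 ± 0.12 (SE, n = 2 and 2; 95% interval -0.75 to -0.16), or 27.0% lower, with an unadjusted p of 0.00831 and an adjusted p of 0.989 in limma across all genes. Ranked by p-value, Junb stood at 131 of the 18127 genes. Between 1039 and 1605 reads before scaling lay behind each value, which gives a counting error of 2.50% to 3.10% of the value, if reads are independent molecules. In the authors' deposited table the p-value of Junb was 0.00302, and 0.855 once adjusted here over all records.

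Jun encodes c-Jun, the founding partner of Fos proteins and a target of the JNK kinases. Its level was 1313 and 1247 scaled read equivalents in mutants 38 and 39, against 1450 and 1765 in wild types 11 and 73. Again both mutants were below both wild types, with wild type 73 highest. Group means were 1280 ± 47.1 in mutants and 1607 ± 222 in wild types (SD, n = 2 each). The log2 fold change was -0.32 ± 0.12 (SE, n = 2 and 2; 95% interval -0.61 to -0.03), or 20.0% lower, with an unadjusted p of 0.0340 and an adjusted p of 0.989 in limma across all genes. Without wild type 73 the log2 fold change of Jun was -0.18 (unadjusted p = 0.170) and that of Junb -0.32 (unadjusted p = 0.0366), in limma with 3 libraries. In the authors' deposited table the p-value of Jun was 0.0294, so that 2 of the 7 members were below 0.05 there, as were 1.74% of all records.

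Jund encodes a Jun protein that is present without stimulation in many cells. It had 1801 and 2001 scaled read equivalents in mutants 38 and 39, against 1580 and 2055 in wild types 11 and 73. Both mutants lay between the wild types. The log2 fold change was 0.08 ± 0.14 (SE, n = 2 and 2; 95% interval -0.26 to 0.41; limma adjusted p = 0.989). A ratio of genes within a library does not depend on how libraries were scaled. Per kilobase, the ratio of Junb to Jund was 0.575 and 0.475 in mutants 38 and 39, against 0.782 and 0.728 in wild types 11 and 73. The ratio of Jun to Jund was 0.381 and 0.326 in mutants 38 and 39, against 0.480 and 0.449 in wild types 11 and 73. Both ratios were lower in each mutant than in each wild type, and the Jun gene ratios were chosen after their values were seen. Since the levels of Jun and Junb did not overlap either, the ratios are no separate evidence. How many of all genes have such a ratio to Jund was not counted. For Fos, Fosb, Fosl1 and Fosl2 the ratio to Jund overlapped between groups.

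Fos encodes c-Fos, the most used marker of recently active neurons. It had 500.1 and 335 scaled read equivalents in mutants 38 and 39, against 404.7 and 404.5 in wild types 11 and 73. The mutants thus lay on either side of wild types that were nearly equal. Its log2 fold change was 0.02 ± 0.20 (SE, n = 2 and 2; 95% interval -0.45 to 0.48; limma adjusted p = 0.997). The interval holds changes in either direction and does not mark the smallest change that would be called. Far larger differences were not called in these libraries, such as that of Cyr61 at 2.47 (limma adjusted p = 0.123). The span of Fos between mutants 38 and 39 was 0.58 on the log2 scale, the second widest of the family after Junb at 0.65.

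Fosb gives rise by splicing to FosB and to the truncated, long-lived ΔFosB, which the single record of the table does not separate. It had 158 and 137 scaled read equivalents in mutants 38 and 39, against 146 and 117 in wild types 11 and 73. The groups overlapped, since wild type 11 was above mutant 39. Its log2 fold change was 0.17 ± 0.20 (SE, n = 2 and 2; 95% interval -0.31 to 0.65; limma adjusted p = 0.989).

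Fosl1 and Fosl2 encode Fra-1 and Fra-2, Fos proteins that lack the strong activation domain of c-Fos. Fosl1 had 67.5 and 69.6 scaled read equivalents in mutants 38 and 39, against 71.6 and 56.3 in wild types 11 and 73. Only 36.0 reads before scaling lay behind the lowest of these, a counting error of 16.7%. The mutants lay between the wild types, at a log2 fold change of 0.11 ± 0.25 (SE, n = 2 and 2; 95% interval -0.48 to 0.70; limma adjusted p = 0.989). Fosl2 had 1054 and 1265 scaled read equivalents in mutants 38 and 39, against 1382 and 1089 in wild types 11 and 73. Its groups overlapped as well, at a log2 fold change of -0.09 ± 0.15 (SE, n = 2 and 2; 95% interval -0.44 to 0.27; limma adjusted p = 0.989).

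Per kilobase of transcript, the family was made up mostly of Jun transcripts. Jund was the most abundant with 947 to 1232 scaled read equivalents per kilobase over the 4 libraries, followed by Junb with 570.0 to 896 and Jun with 391 to 553. Fos had 159 to 237 and Fosl2 161 to 211, and these neighbours overlapped. Fosb had 31.0 to 41.7 and Fosl1 30.2 to 38.4, which overlapped too. Every other pair of neighbours in this order stood apart in all 4 libraries. Summed per kilobase, the 3 Jun genes came to 2112 and 2161 in mutants 38 and 39, against 2143 and 2682 in wild types 11 and 73. The 4 Fos genes came to 476 and 426 in mutants 38 and 39, against 480.3 and 420 in wild types 11 and 73. Neither sum separated the groups. Junb made up 24.0% and 22.0% of the family's summed level in mutants 38 and 39, against 28.2% and 28.9% in wild types 11 and 73. Jund made up 41.7% and 46.4% in mutants 38 and 39, against 36.1% and 39.7% in wild types 11 and 73. In such shares a lower level of any gene raises the shares of the others, and the level of Jund itself overlapped between groups. These levels use the length of the GENCODE M21 transcript matched to each RefSeq record, 1668 bases for Jund, 1809 for Junb and 6537 for Fosl2.

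**Figure D2:**
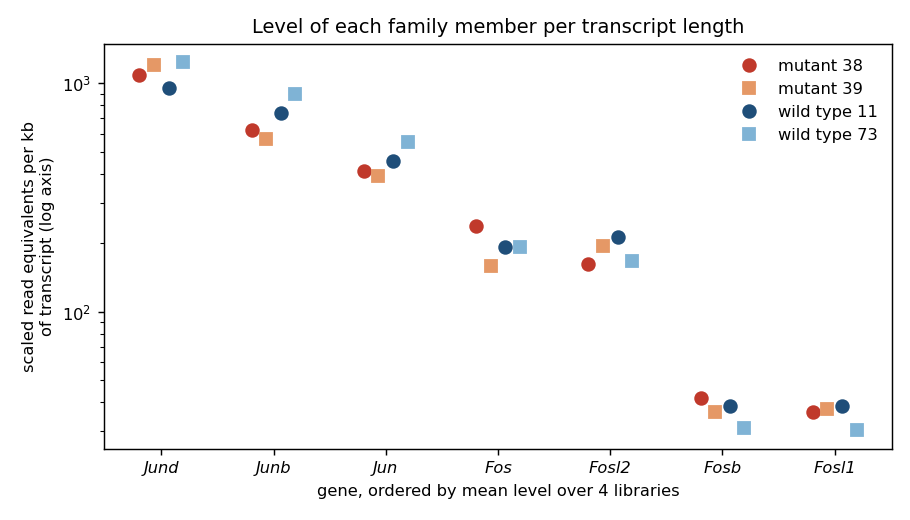
Scaled read equivalents per kilobase of transcript on a log axis for the 7 family members, ordered from left to right by mean level, with a point for each library. Jund, Junb and Jun are separate from each other and from the rest, and Fos overlaps Fosl2 as Fosb overlaps Fosl1.

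Within the pair high in choroid plexus markers, mutant 38 minus wild type 11, the log2 difference was -0.26 for Junb and -0.14 for Jun. Within the pair low in them, mutant 39 minus wild type 73, it was -0.65 for Junb and -0.50 for Jun. The sign of these differences was set in advance, as both mutants lay below both wild types for Junb and Jun. For Fos the differences within the 2 pairs were 0.30 and -0.27, and for Fosl2 -0.39 and 0.22, so that the pairs pointed opposite ways. When the choroid plexus level was added to the model, which leaves 1 residual degree of freedom, the log2 fold change of Junb was -0.45 with a limma adjusted p of 0.063, in a range from 0.063 to 1.00 over its 16 alternatives. The same fit gave -0.32 for Jun (limma adjusted p = 0.336, in a range from 0.258 to 1.00). Some markers of other cell types also lay apart between the groups, beside 16.8% of all genes with both mutants above both wild types and 16.5% with both below. All 6 oligodendrocyte markers were higher in both mutants, with a summed level of 97342 and 85903 in mutants 38 and 39, against 79161 and 56970 in wild types 11 and 73. This sum was lowest in wild type 73, where Jun and Junb were highest. It was highest in mutant 38, whereas Jun and Junb were lowest in mutant 39. Of 6 endothelial markers 3 were higher in both mutants, with sums of 2450.3 and 2107 in mutants 38 and 39, against 2024 and 1926 in wild types 11 and 73. Red blood cell markers were higher in both mutants in 3 of 3 cases, with sums of 4382 and 5110.0 in mutants 38 and 39, against 4177 and 3462 in wild types 11 and 73. Of these, Hba-a1 and Hba-a2 had nearly equal values in each library, such as 2116.9 and 2117.2 in mutant 38. They are therefore hardly separate markers, and each sum counts both. Among 4 thalamus markers 1 was higher in both mutants, Slc17a6, a vesicular glutamate transporter gene, with 954 and 783 in mutants 38 and 39, against 380.4 and 408 in wild types 11 and 73 (log2 fold change 1.13 ± 0.14 SE, n = 2 and 2; limma adjusted p = 0.123). The thalamus sums were 3581 and 1456 in mutants 38 and 39, against 1377 and 1437 in wild types 11 and 73, so that mutant 38 stood apart. For the rest of this list the groups overlapped, with log2 fold changes of 1.04 for Prkcd, 0.85 for Tcf7l2 and -0.82 for Calb2. Among 5 meningeal fibroblast markers 1 was lower in both mutants, Dcn, the decorin gene, with 473 and 259 in mutants 38 and 39, against 801 and 1059 in wild types 11 and 73 (log2 fold change -1.39 ± 0.28 SE, n = 2 and 2; limma adjusted p = 0.641). The sums of this list were 1826 and 826 in mutants 38 and 39, against 2004 and 1871 in wild types 11 and 73. Groups overlapped for its other markers, with log2 fold changes of 0.08 for Lum, -0.19 for Col1a1, -0.14 for Col1a2 and -0.36 for Ogn. From the p-values in the authors' deposited table, adjusted here over all records, Slc17a6 had 1.88e-06 and Dcn 0.000383; both were chosen after their values were seen. Groups did not overlap for 1 of 4 astrocyte markers, higher in the mutants, and for 0 of 8 excitatory neuron, 0 of 12 choroid plexus and 0 of 4 microglia markers. None of the markers in these lists was at 0 in any library. The part of these cell types, and of the low depth of wild type 73, in the values of Jun and Junb was not tested.

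**Figure D3:**
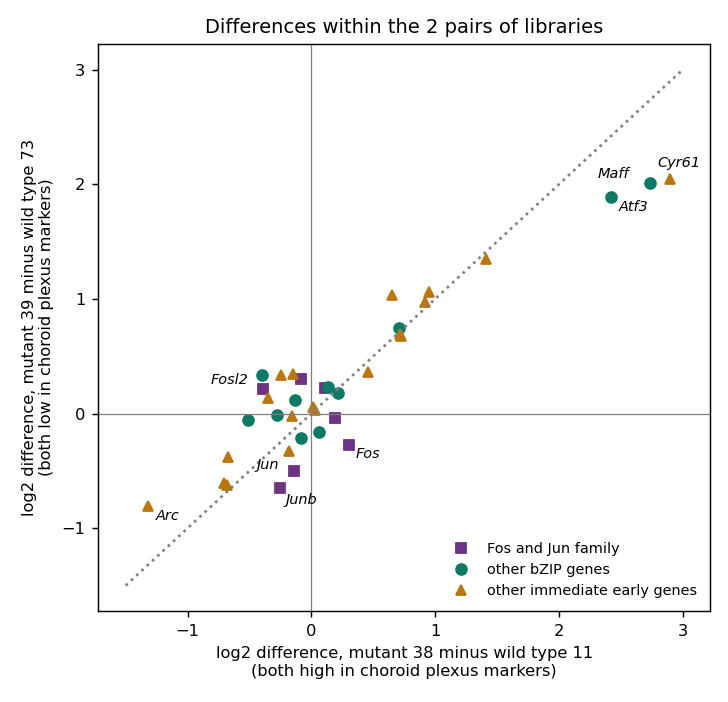
Log2 difference of mutant 38 minus wild type 11 (horizontal) against mutant 39 minus wild type 73 (vertical) for Fos and Jun family genes, other bZIP genes and other immediate early genes with a mean of at least 10 scaled read equivalents, with a dotted line of equality. Jun and Junb are below 0 in both pairs, Fos, Fosl1, Fosl2 and Jund change sign between the pairs, and Maff and Atf3 lie at 1.89 or above in both. A gene whose groups do not overlap has the same sign in both pairs by construction.

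The bZIP proteins that can pair with Fos or Jun proteins, or share their sites, included 3 with differences larger than those of Jun and Junb and in the opposite direction. Of 14 such genes, 13 were tested, 0 were called in limma, and 3 had an unadjusted p below 0.05, each higher in the mutants, beside 2.18% of all genes higher and 1.75% lower. Over the 13 genes the median log2 fold change was -0.0070. Maff encodes a small Maf protein without an activation domain of its own. It had 189 and 129 scaled read equivalents in mutants 38 and 39, against 27.6 and 31.3 in wild types 11 and 73, a log2 fold change of 2.37 ± 0.28 (SE, n = 2 and 2; 95% interval 1.72 to 3.03; limma adjusted p = 0.123). Atf3, a stress-induced factor that pairs with Jun proteins, had 219 and 124 in mutants 38 and 39, against 39.9 and 32.8 in wild types 11 and 73, a log2 fold change of 2.16 ± 0.32 (SE, n = 2 and 2; 95% interval 1.41 to 2.91; limma adjusted p = 0.238). Mafk, another small Maf gene, had 369 and 317 in mutants 38 and 39, against 225 and 188 in wild types 11 and 73, at 0.73 ± 0.17 (SE, n = 2 and 2; limma adjusted p = 0.823). For all 3 genes the lower mutant was well above the higher wild type. Atf2, which also pairs with c-Jun, had a log2 fold change of 0.18 ± 0.11 (SE, n = 2 and 2), and its groups did not overlap either; without wild type 73 it had 0.08. In the authors' deposited table the p-values, adjusted here over all records, were 4.79e-05 for Maff, 0.000641 for Atf3 and 0.855 for Mafk, and 0.195% of records were below 0.05. With the choroid plexus level in the model, which leaves 1 residual degree of freedom, limma called 0.712% of all genes and these 3 of the 13, all higher. Their limma adjusted p was then 9.74e-07 for Maff (up to 0.467 over its alternatives), 1.71e-06 for Atf3 (up to 0.627) and 0.0195 for Mafk (up to 1.00). With a robust variance prior, which called 0.0662% of all genes, Maff was called as well (limma adjusted p = 0.0445). Maff and Atf3 were known to stand out from earlier results of the same libraries, so their values are no separate evidence.

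**Figure D4:**
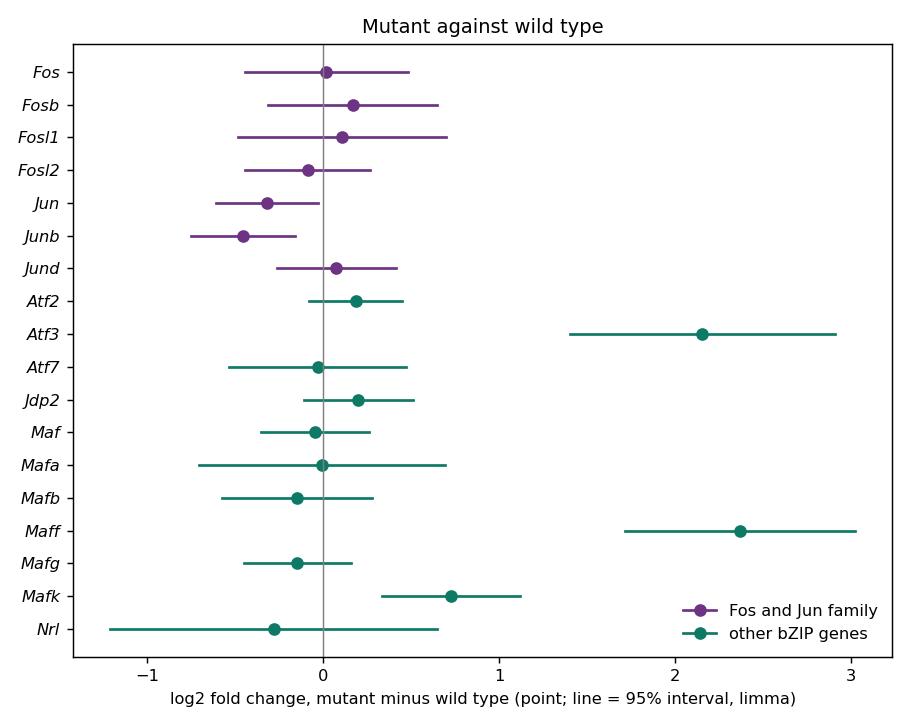
Log2 fold change of mutant minus wild type with its 95% interval from limma, for the 7 Fos and Jun family genes and the other bZIP genes with a mean of at least 10 scaled read equivalents. Jun and Junb have intervals below 0, Maff, Atf3 and Mafk have intervals above 0, and all other intervals include 0.

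Upstream of the family, kinases that act on Fos and Jun genes or proteins went both ways, with 10 of 20 log2 fold changes above 0 and 10 below. Of these genes 0 were called in limma, 1 was lower and 0 higher at an unadjusted p below 0.05, beside 1.75% and 2.18% of all genes, and the median log2 fold change was -0.0015. For 4 of the 20 both mutants were below both wild types and for 2 above, beside 16.5% and 16.8% of all genes. That gene was Mapk7, which encodes ERK5, at 246 and 218 scaled read equivalents in mutants 38 and 39, against 277 and 340.1 in wild types 11 and 73 (log2 fold change -0.40 ± 0.17 SE, n = 2 and 2). Rps6ka2, a ribosomal S6 kinase gene, had -0.30 ± 0.14, and Mapk3, which encodes ERK1, had -0.22 ± 0.11 (SE, n = 2 and 2). Single libraries moved these values: Mapk7 had -0.26 without wild type 73, and without mutant 39 Rps6ka2 had -0.13 and Mapk3 -0.14.

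Factors that bind the promoters of Fos and Jun genes gave 0 calls among 17 in limma, with 1 lower and 0 higher at an unadjusted p below 0.05, beside 1.75% and 2.18% of all genes, and a median log2 fold change of -0.07. Atf1, a relative of CREB, had 93.3 and 82.1 scaled read equivalents in mutants 38 and 39, against 149 and 114 in wild types 11 and 73 (log2 fold change -0.57 ± 0.23 SE, n = 2 and 2). For 7 of the 17 both mutants were below both wild types, and for 2 above, beside 16.5% and 16.8% of all genes. Among the 7 were the CREB coactivator gene Crtc2 at -0.27 ± 0.14 and Srf, the serum response factor gene, at -0.22 ± 0.11 (SE, n = 2 and 2). Without wild type 73 Srf had -0.11, and without wild type 11 Atf1 had -0.37. Of 4 genes for proteins that regulate Jun proteins or their turnover, 0 were called and 0 had an unadjusted p below 0.05 in limma. Among them Men1, whose product menin binds JunD, had a log2 fold change of -0.29 ± 0.15, and Cops5, also known as Jab1, had 0.21 ± 0.12 (SE, n = 2 and 2). Men1 had -0.13 without wild type 73, -0.18 without mutant 38 and -0.45 without wild type 11.

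Genes known as AP-1 targets in other settings went both ways. Of 20 such genes, 17 were tested, 0 were called in limma, 3 were higher and 0 lower at an unadjusted p below 0.05, beside 2.18% and 1.75% of all genes, and the median log2 fold change was 0.02. Plaur, the urokinase receptor gene, had 56.5 and 38.2 scaled read equivalents in mutants 38 and 39, against 7.26 and 4.68 in wild types 11 and 73. This is a log2 fold change of 2.79 ± 0.42 (SE, n = 2 and 2; limma adjusted p = 0.251). Penk, the enkephalin precursor gene, had 235 and 222 in mutants 38 and 39, against 137 and 129 in wild types 11 and 73, at 0.78 ± 0.16 (SE, n = 2 and 2). Nts, the neurotensin gene, had 0.65 ± 0.21, and Cd44, a hyaluronan receptor gene, had -0.49 ± 0.21 (SE, n = 2 and 2). With the choroid plexus level in the model limma called 2 of the 17, Plaur (adjusted p = 0.000115, up to 0.763 over its alternatives) and Penk (adjusted p = 0.0348, up to 1.00). That fit called 0.712% of all genes and leaves 1 residual degree of freedom. Gria2, Cdk5 and Pdyn, named in striatum as targets of ΔFosB, had log2 fold changes of 0.06, 0.02 and 0.03 in the main fit. They were chosen for that role and after their values were seen.

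Other immediate early genes, which are induced together with Fos, held both directions. Of 19 tested 0 were called in limma, 8 were higher and 3 lower at an unadjusted p below 0.05, beside 2.18% and 1.75% of all genes, and the median log2 fold change was 0.05. Arc, a synaptic gene of excitatory neurons, had 1344 and 1647 scaled read equivalents in mutants 38 and 39, against 3354 and 2884 in wild types 11 and 73, a log2 fold change of -1.06 ± 0.13 (SE, n = 2 and 2; limma adjusted p = 0.149), beside -0.45 for Junb and -0.32 for Jun. Zfp36, whose protein destabilises short-lived messages, had 248 and 209 in mutants 38 and 39, against 92.6 and 81.2 in wild types 11 and 73. Dusp1, a phosphatase that inactivates MAP kinases, had a log2 fold change of 0.95 ± 0.12 (SE, n = 2 and 2; limma adjusted p = 0.152). Cyr61, a secreted matrix gene, had 2.47 ± 0.26 (SE, n = 2 and 2; limma adjusted p = 0.123). After adjustment here over all records, the p-values from the authors' deposited table were 8.67e-09 for Arc, 8.12e-16 for Cyr61, 5.71e-05 for Dusp1 and 0.00504 for Zfp36. With the choroid plexus level in the model limma called 6 of the 19, 5 higher and 1 lower, Arc among them at an adjusted p of 3.24e-07 (up to 0.627 over its alternatives). The covariate fit called 0.712% of all genes and leaves 1 residual degree of freedom. With a robust variance prior, which called 0.0662% of all genes, Arc was called too (limma adjusted p = 0.0445). For 5 of the 19 both mutants were below both wild types and for 8 above, beside 16.5% and 16.8% of all genes. Besides Arc, the 5 held Npas4 at -0.66 ± 0.17, Nr4a3 at -0.52 ± 0.15, Egr2 at -0.65 ± 0.34 and Egr4 at -0.25 ± 0.16 (SE, n = 2 and 2). Groups overlapped for Nr4a1 at 0.10, Nr4a2 at -0.11 and Egr3 at -0.09. They also overlapped for Egr1, often read beside Fos, at 0.03 ± 0.11 (SE, n = 2 and 2). These genes were chosen after their values were seen.

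**Figure D5:**
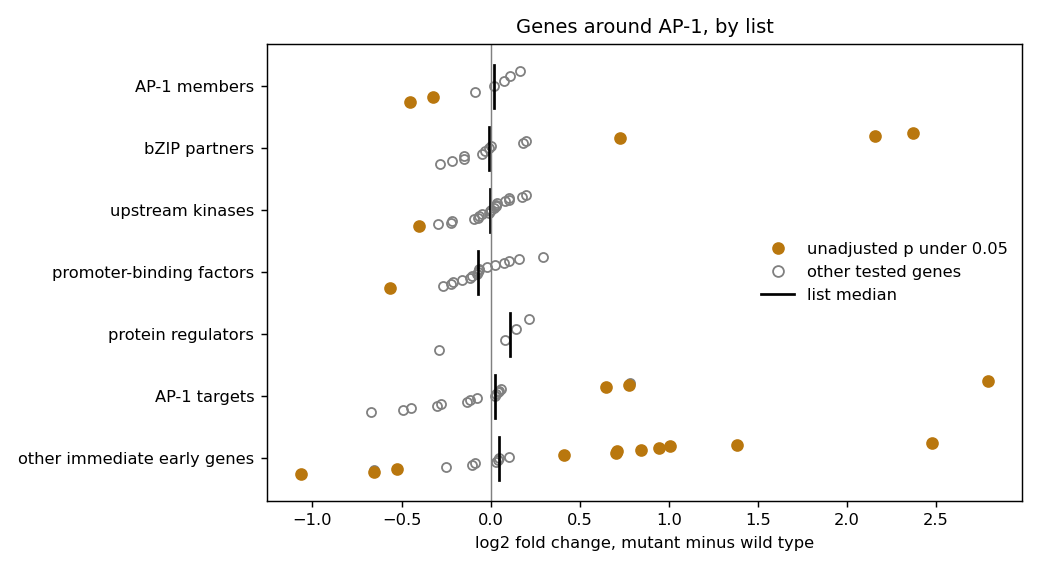
Log2 fold change of mutant minus wild type for every tested gene of 7 lists around AP-1, with filled points at an unadjusted p below 0.05 and black lines at list medians. Medians lie between -0.07 and 0.11, while single genes reach -1.06 (Arc) and 2.79 (Plaur).

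Genes whose levels over the 4 libraries ran most like those of Fos, Jun and Junb were sought among 15484 genes with a mean of at least 10 scaled read equivalents. The measure was the root mean square difference between log2 levels after each gene was centred on its mean, over 4 libraries. Closest to Junb were 9630028B13Rik at 0.023, Mrpl51 at 0.025 and Scarna6 at 0.028. Closest to Jun were Npcd at 0.0076, Gm12522 at 0.011 and Ccdc55 at 0.014. For Fos they were Crybg3 at 0.011, Haus1 at 0.013 and Tpd52l1 at 0.020. None of these is a member of the AP-1 lists above. With 4 libraries such likeness is common, and 198 genes were within 0.1 of Junb, 696 of Jun and 253 of Fos.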

How the data were processed

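RNA of hippocampus was measured in 2 mutants and 2 wild types. According to the labels, libraries were made from rRNA-depleted total RNA with random hexamers and kept the strand through dUTP. The submitters' processing notes name GSNAP, DESeq2 and mm9; the read counter is not given in the sources used here, nor is its strand setting. The authors deposited 31315 records, each with a signal per library and a p-value that is named after DESeq and may or may not be adjusted. All signal values are whole multiples of 1 step per library (tolerance 0.05 of a step) with peaks at 42, 84 and 126 steps, hence aligned bases divided by a scaling factor, neither read counts nor values per length.

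Each value was divided by 42. A gene was its record with the highest mean. Genes with at least 1 read equivalent in 2 libraries were tested on log2(read equivalents + 1), which understates the change of low genes, with limma 3.58.1 in R 4.3.3 (variance trend, two-sided, Benjamini-Hochberg), group as the only term; the code was tested on simulated data. Intervals are at 95%. Named genes are the 7 members, up to 4 of each list with the smallest p, and the 3 most like each member spanning over 0.5. Members and lists were chosen with earlier results of these data known. A gene of 1 list is not reported here. Whether samples are separate animals is not said in the labels, so p-values cover the spread of these samples, which may be technical. Counting errors cover counting only. Alternatives were other pseudocounts, filters, units, scalings, variance priors and records, a choroid plexus covariate and each library left out. Plots used Python 3.11.15 and matplotlib 3.10.9.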

Additional observations from a re-analysis of the deposited data

How the results depend on the processing

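Under the 16 alternative fits 0 of the 7 members passed. Junb and Jun were lower in the mutants in all 16, from -0.59 to -0.32 and from -0.46 to -0.18 with a library left out. As both mutants lay below both wild types for these genes, leaving out a library could not turn their sign. All 16 fits draw on the same 4 libraries and are no separate evidence. Among the lists around AP-1, 0 genes were called, but the choroid plexus covariate called 3 bZIP partners, 2 AP-1 targets and 6 other immediate early genes, the robust prior Maff and Arc, and the fit without wild type 11 Maff, Cyr61 and Dusp1; Cyr61 was also called without mutant 38 and without mutant 39. On the authors' deposited p-value 2 members were below 0.05. The number of genes called over the whole table, 1, was 0 without a variance trend, 12 with a robust variance prior, 129 with the choroid plexus covariate, and 1 to 37 with a library left out. With a library left out, the sign turned for Fos (-0.27 to 0.31), Fosl1 (-0.062 to 0.28), Fosl2 (-0.26 to 0.084), Jund (-0.11 to 0.26), Atp6ap2 (-0.056 to 0.13), Crybg3 (-0.25 to 0.30), Fbxw7 (-0.040 to 0.32), Haus1 (-0.29 to 0.30), Itch (-0.0035 to 0.17) and Tpd52l1 (-0.32 to 0.28). It also turned for Fos at -0.0012 and Haus1 at -0.015 with upper-quartile scaling, for Haus1 at -0.012 with the covariate and for Crem at -0.14 with the record of lowest mean. The cause was not tested, and these genes were not called in any fit. Of 112 member values 105 kept their sign and their side of the threshold. No paired analysis was possible because the groups share no replicate number; the pairs set side by side by choroid plexus level were formed from measured values and are no pairing of the design. With 2 libraries a group, and 36.0 to 85.7 reads behind Fosl1, small changes were not detectable.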
